A study of Mus musculus with 13 samples.

Results

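The collagen genes were taken as every gene symbol made of Col, a type number, the letter a and a chain number, which gave 44 genes, present alike among the 24984 genes listed for the tumor libraries and the 24421 listed for the sprout libraries. They were divided into 8 basement membrane chains (types IV, XV and XVIII), 11 fibrillar chains (types I, II, III, V, XI, XXIV and XXVII) and 25 others. Tumor endothelial cells (ECs) came from orthotopic mammary tumors of E0771 cells, a mouse mammary carcinoma line, in C57BL6/J mice. Cells positive for CD31 and CD105 were sorted in pools of 100 per library for Smart-Seq2. Apelin, encoded by Apln, is a secreted peptide ligand of the Apelin receptor. Apelin-depleted libraries (n = 3) came from Apln-/- mice with tumor cells carrying shApln, and Apelin wild-type libraries (n = 6) from wild-type mice with tumor cells carrying shRenilla, so host and tumor cell genotype changed together. The ages and the number of mice behind each library were not given in the sources used here. Sprout ECs were CD31+ cells freed with Collagenase A from embryoid bodies that had sprouted in a collagen I gel under 30 ng/ml VEGFA164, the gel being set up on day 8. The Apln sense libraries (STOP, n = 2) carried a splice acceptor integrated in sense in Apln, on C57BL/6x129 stem cells, and per the study's legend received DMSO. The Apln anti-sense libraries (GO, n = 2) came from sister cells in which Cre had reverted the cassette, and per that legend received 1000 nM Apelin, so genotype and added peptide changed together here too. The trap sat in an intron of Apln, the GO line being its repaired sister, and the labels do not say whether sprout replicates were separate cultures or tumor replicates separate mice (the study's legend counts the tumor libraries as its n), so p-values measure the spread between these libraries, which may be technical.

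Collagens are secreted as trimers wound from chains of 1 or more genes. Type IV chains join into the sheet-like network of the basement membrane, on which the endothelium rests, and types XV and XVIII lie within or just beneath that sheet and carry glycosaminoglycan side chains. The fibrillar chains are the product above all of fibroblasts and other mesenchymal cells, and they assemble into the fibrils of the interstitial matrix outside the basement membrane.

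The genes of the main endothelial type IV chains lie head to head on chromosome 8 of mm10. GENCODE places Col4a1 at chr8:11198423-11312826 on the minus strand and Col4a2 at chr8:11312805-11449287 on the plus strand, so their 5′ ends overlap by 22 bases. The stretch shared by both first exons is shown because these genes were the most abundant collagens of the tumor libraries and the ratio between them is described below. It is written on the plus strand, from RefSeq (GRCm38.p6), with its single GGGCGG in capitals.
Col4a1/Col4a2: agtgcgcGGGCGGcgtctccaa

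Promoters were matched for 35 of the 44 collagen genes in RefSeq (38 windows). From each, the 232 bases from 250 to 19 bases before the start were searched on both strands for CCAAT (the CCAAT box), GGGCGG (the GC box) and TATAAA (the TATA box), none of which overlaps another. GGGCGG was found in 52.6% of collagen stretches and in 30.1% of all 32817 stretches, CCAAT in 31.6% and 32.4%, and TATAAA in 13.2% and 11.9%. A match describes letters, not a bound site. The stretches below belong to basement membrane chains other than type IV (Col15a1, Col18a1), to fibrillar chains that differed between libraries (Col3a1, Col5a3), to a chain whose groups separated in opposite directions in the tumor and sprout libraries (Col13a1), and to the chains past the thresholds in sprout ECs (Col23a1, Col27a1). Each is 5′ to 3′ on the gene's strand, with any match of those motifs in capitals.
Col15a1 (chr4:47207762-47207993, plus): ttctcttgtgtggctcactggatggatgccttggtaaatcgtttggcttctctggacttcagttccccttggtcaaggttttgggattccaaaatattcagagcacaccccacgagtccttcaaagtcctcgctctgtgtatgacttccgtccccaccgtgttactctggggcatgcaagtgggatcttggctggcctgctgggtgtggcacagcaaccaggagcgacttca
Col18a1 (chr10:77166549-77166780, minus): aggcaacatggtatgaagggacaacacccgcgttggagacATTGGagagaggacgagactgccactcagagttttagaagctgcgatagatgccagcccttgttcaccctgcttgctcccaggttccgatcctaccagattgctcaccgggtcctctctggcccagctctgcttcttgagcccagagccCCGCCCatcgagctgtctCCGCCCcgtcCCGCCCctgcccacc
Col3a1 (chr1:45311288-45311519, plus): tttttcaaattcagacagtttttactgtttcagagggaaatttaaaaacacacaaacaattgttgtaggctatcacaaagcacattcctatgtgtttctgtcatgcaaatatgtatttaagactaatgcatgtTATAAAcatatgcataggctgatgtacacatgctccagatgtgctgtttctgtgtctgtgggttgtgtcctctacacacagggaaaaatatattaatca
Col5a3 (chr9:20815086-20815317, minus): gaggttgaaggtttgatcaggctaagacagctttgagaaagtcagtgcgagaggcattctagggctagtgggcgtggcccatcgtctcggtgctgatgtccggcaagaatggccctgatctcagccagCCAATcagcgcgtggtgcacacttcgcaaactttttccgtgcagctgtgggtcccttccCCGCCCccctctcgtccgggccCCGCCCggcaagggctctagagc
Col13a1 (chr10:61979127-61979358, minus): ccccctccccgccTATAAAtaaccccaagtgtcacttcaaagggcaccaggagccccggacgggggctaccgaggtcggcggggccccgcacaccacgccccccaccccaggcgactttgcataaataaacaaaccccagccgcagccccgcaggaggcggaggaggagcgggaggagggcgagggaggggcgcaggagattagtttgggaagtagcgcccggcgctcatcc
Col23a1 (chr11:51289670-51289901, plus): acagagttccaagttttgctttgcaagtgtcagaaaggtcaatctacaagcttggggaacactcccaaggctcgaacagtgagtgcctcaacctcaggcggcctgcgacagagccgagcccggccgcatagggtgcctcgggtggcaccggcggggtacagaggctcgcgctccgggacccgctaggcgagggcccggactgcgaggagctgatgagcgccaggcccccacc
Col27a1 (chr4:63215162-63215393, plus): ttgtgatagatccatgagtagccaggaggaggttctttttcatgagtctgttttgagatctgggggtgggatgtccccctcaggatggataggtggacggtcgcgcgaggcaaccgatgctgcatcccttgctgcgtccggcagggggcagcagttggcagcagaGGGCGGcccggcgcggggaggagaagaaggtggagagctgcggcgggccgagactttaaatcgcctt
The stretch of Col18a1, at the more distal of its RefSeq starts, held 3 GGGCGG and 1 CCAAT, and that of Col5a3 held 2 and 1. Col3a1 stood at the other end in composition, with a GC content of 34.5% against a median of 52.2% over all stretches and 1 TATAAA. The stretches of Col15a1 and Col23a1 held none of these motifs.

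Total counts were 4661044 to 14455093 per tumor library and 12327030 to 16804071 per sprout library, so that 3 counts correspond to 0.207 to 0.644 and 0.178 to 0.243 CPM (library-scaled counts), respectively. Levels below are CPM after TMM normalization. Apln itself was at 12.1, 8.51 and 2.44 CPM in the Apelin-depleted libraries and at 416 to 1033 CPM in the wild-type ones. In the sprout libraries it was at 66.1 and 80.2 CPM under the STOP label and 58.2 and 65.9 CPM under GO. Both STOP libraries thus lay above both GO libraries, against the direction of the labels, where 31% of all genes tested lay higher without overlap. The log2 fold change was 0.24 (SE 0.16, adjusted p = 0.367, edgeR). Those groups are therefore called the libraries labelled STOP and GO. All 12 endothelial markers had counts in every library. Wild-type replicate 2 stood apart in the tumor set, with fibroblast markers summing to 3992 CPM against 26.02 to 167.7 CPM in the other wild-type libraries. Leukocyte markers summed to 938 CPM in depleted replicate 1 and 659 CPM in wild-type replicate 4, against 6.47 to 55.7 CPM in the other tumor libraries. Epithelial markers summed to 220 CPM in depleted replicate 1, against 14.8 to 67.0 CPM in the other tumor libraries. The part of these markers in the collagen values was not tested. The libraries labelled STOP held less endothelial and more pluripotency marker signal than those labelled GO, as given below.

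In tumor ECs, basement membrane chains made up 93.6%, 97.2% and 96.5% of all collagen counts in the Apelin-depleted libraries and 86.6% to 94.5% in 5 of the 6 wild-type libraries, with 53.6% in wild-type replicate 2. Col4a1 was at 2763, 4072 and 3648 CPM in the Apelin-depleted libraries and ran from 2341 through a median of 2625 to 3012 CPM in the wild-type libraries. Col4a2 was at 4384, 4248 and 4763 CPM in the depleted libraries and between 3079 and 4587 CPM (median 3728) in the wild-type ones. Both genes thus stayed within a narrow band over 9 libraries, and their groups overlapped. The log2 fold change, Apelin-depleted over wild-type throughout, was 0.41 (SE 0.24) for Col4a1 and 0.25 (SE 0.24) for Col4a2, both with adjusted p = 1 (edgeR, quasi-likelihood, adjusted after Benjamini and Hochberg over all genes tested).

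Col18a1, whose C-terminal fragment is endostatin, was at 942, 1620 and 1335 CPM in the depleted libraries and at 796 to 1007 CPM (median 893) in the wild-type libraries. Depleted replicate 1 lay inside the wild-type range and the other two above it. The log2 fold change was 0.54 (SE 0.25, unadjusted p = 0.0466, adjusted p = 1, edgeR). Col15a1 was at 162, 199 and 318 CPM against 129 to 273 CPM (median 191), a log2 fold change of 0.23 (SE 0.31, adjusted p = 1, edgeR), and without depleted replicate 3 its sign turned (−0.09). The remaining type IV chains, Col4a3, Col4a4, Col4a5 and Col4a6, which form the networks of kidney, lung and epithelial basement membranes, reached at most 3.73 CPM in any tumor library and did not pass the filter on low counts. All 4 tested basement membrane chains had a positive estimate, with a median of 0.33 against −0.03 over the 13073 genes tested. The 12 endothelial markers, all positive too, had a median of 0.40 (log2), and their part in the collagen values was not tested.

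Per kb of transcript, the order in the tumor libraries was Col4a2 (621 CPM per kb on average over the 9 libraries), Col4a1 (441), Col18a1 (204), Col6a1 (40.8), Col15a1 (38.3), Col6a2 (35.3), Col3a1 (33.7) and Col13a1 (28.4). Col4a2 lay above Col4a1 in every tumor library. The places of Col6a1, Col6a2 and Col3a1 come from the wild-type libraries, chiefly replicate 2. In the depleted libraries alone Col13a1 (57.5 CPM per kb) and Col15a1 (42.5) stood above Col6a1 (10.99), Col6a2 (6.04) and Col3a1 (2.01). From Col6a1 downward the neighbours in this order did not differ beyond their spread, the coefficient of variation being 155% for Col6a1 and 173% for Col6a2 against 13.6% for Col4a2 and 19.7% for Col4a1.

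**Figure D1:**
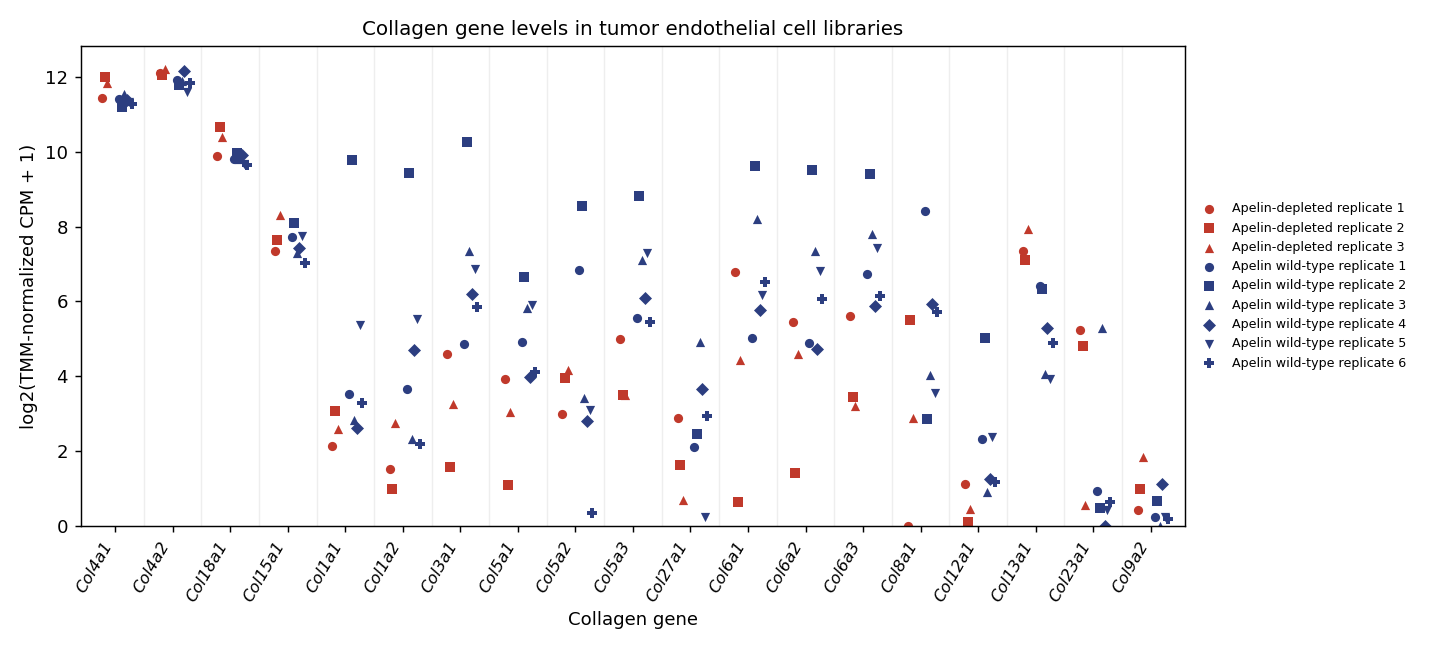
Level of 19 collagen genes in each tumor EC library, as log2 of TMM-normalized CPM + 1, with Apelin-depleted libraries in red and Apelin wild-type libraries in blue and 1 symbol per replicate. The type IV and XVIII chains sit in tight clusters, with Col4a1 between 2341 and 4072 CPM, while the type I, III, V and VI chains spread widely and are highest in wild-type replicate 2 (Col3a1 at 1219 CPM).

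The fibrillar chains were low and uneven in the same libraries. Col3a1, the homotrimeric partner of type I collagen in fibrils, was at 23.1, 1.97 and 8.53 CPM in the Apelin-depleted libraries and at 28.3 to 1219 CPM (median 93.7) in the wild-type libraries. Col5a3, a type V chain, was at 30.8, 10.3 and 10.2 CPM against 43.0 to 447 CPM (median 102), and Col5a1, the type V chain that starts fibril assembly, at 14.1, 1.13 and 7.19 CPM against 14.9 to 99.0 CPM (median 42.8). In each of these 3 genes every depleted library lay below every wild-type library. The log2 fold changes were −4.64 (SE 1.69, adjusted p = 0.981) for Col3a1, −3.14 (SE 0.85, adjusted p = 0.849) for Col5a3 and −2.63 (SE 0.80, adjusted p = 0.906) for Col5a1 in edgeR's test, so none was called. When single libraries were left out, that of Col3a1 ran from −5.74 to −2.97, the latter without wild-type replicate 2. That of Col5a3 ran from −3.87 to −2.41, and that of Col5a1 from −3.48 to −2.11.

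The chains of type I collagen did not separate. Col1a1 was at 3.40, 7.39 and 5.00 CPM in the depleted libraries and at 5.16 to 882 CPM in the wild-type libraries, whose median was 9.68 CPM. Col1a2 was at 1.87, 0.98 and 5.73 CPM against 3.53 to 685 CPM (median 18.3). Their log2 fold changes of −4.90 (SE 2.404) and −5.51 (SE 2.41), with adjusted p = 1 for both in edgeR, rested on wild-type replicate 2: without it they were −1.43 and −2.65. Col5a2 was at 6.97, 14.6 and 17.1 CPM against 0.28 to 373 CPM, high in wild-type replicates 1 and 2 only, and Col2a1, Col11a2 and Col27a1 stayed at or below 29.4 CPM with overlapping groups. Col11a1 and Col24a1 did not pass the filter. Of the 9 fibrillar chains tested, 8 had a negative estimate, with a median of −2.72. That median became −1.75 without wild-type replicate 2 and −3.48 without Apelin-depleted replicate 1, where all 9 were negative.

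Summed over all 11 chains, fibrillar collagen was at 108, 39.7 and 58.7 CPM in the Apelin-depleted libraries. In wild-type replicates 1 to 6 it was at 251, 3728, 411, 211, 432 and 143 CPM, so the lowest wild-type library lay above the highest depleted one. The summed basement membrane chains were at 9487 ± 1070 CPM (SD, n = 3) in depleted and 7472 ± 622 CPM (SD, n = 6) in wild-type libraries. The basement membrane share of the counts in both classes was 98.7%, 99.6% and 99.4% in the depleted libraries, a mean of 99.2% ± 0.47 (SD, n = 3). In wild-type replicates 1 to 6 it was 96.8%, 65.8%, 95.03%, 97.6%, 93.9% and 98.0%, a mean of 91.2% ± 12.5 (SD, n = 6), or 96.3% without replicate 2. Exact binomial 95% intervals were at most 0.279 percentage points to either side. They cover counting error only, and reads without molecular identifiers from pools of 100 cells are not independent molecules. No test was run on the share.

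Mesenchymal marker genes were high in the library with the most fibrillar collagen. Of 10 fibroblast markers 9 had counts in wild-type replicate 2, only Fap being at 0, and Dcn (decorin) was at 2097 CPM, Postn (periostin) at 1093 CPM and Pdgfrb, a mural marker, at 168 CPM. The fibroblast list summed to 32.2 to 379 CPM in depleted and 26.02 to 3992 CPM in wild-type libraries, and the 10 mural markers to 76.3 to 96.6 CPM and 92.3 to 458 CPM. Depleted replicate 2 had the second highest fibroblast sum (379 CPM, with Dcn at 159 CPM) and the lowest fibrillar sum (39.7 CPM). Of the 7 fibroblast and 9 mural markers tested, 1 of each (Twist1 and Pdgfrb) lay lower in every depleted library than in any wild-type library, where 1.27% of all genes tested did. The others overlapped. A negative estimate was found for 6 of the fibroblast markers (median −2.525) and 8 of the mural markers (median −1.63). Thy1 (1.06) and Tagln (0.29) had positive log2 fold changes. In bulk libraries fewer cells of a type and less RNA per cell cannot be told apart, and the part of these cells in the collagen values was not tested.

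**Figure D2:**
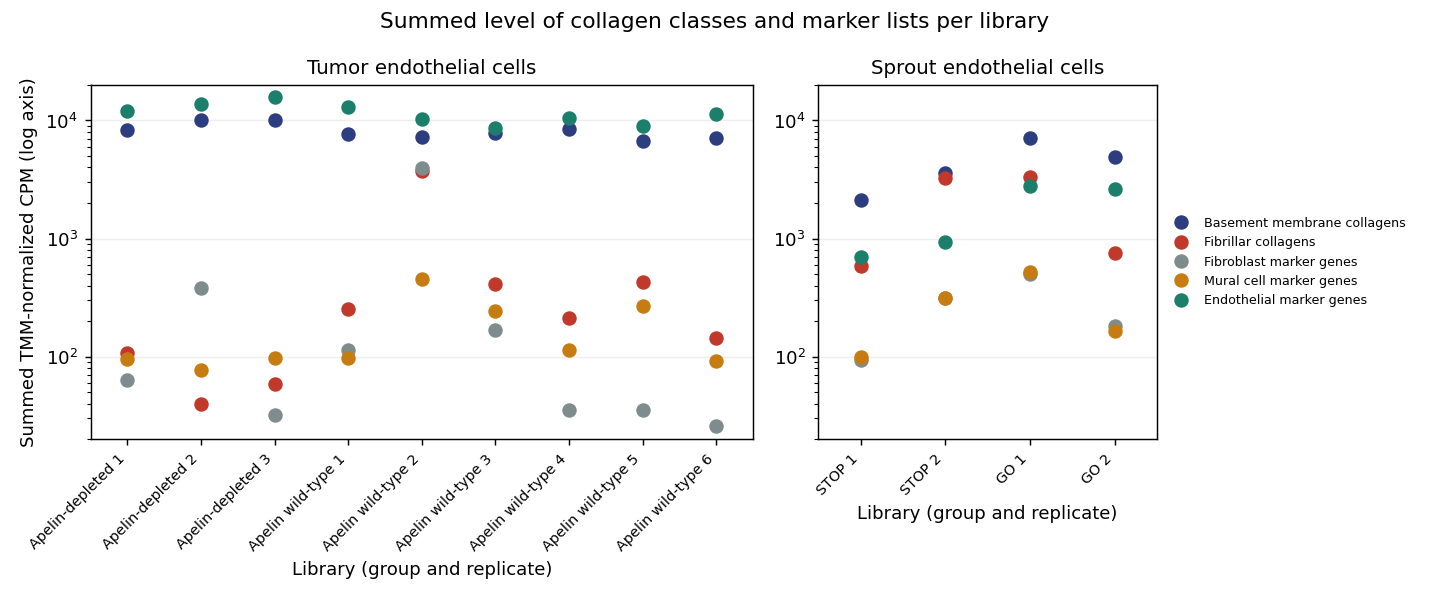
Summed TMM-normalized CPM (log axis) of the basement membrane and fibrillar collagens and of the fibroblast, mural and endothelial marker lists, for each tumor EC library (left) and sprout EC library (right). Basement membrane collagen stays between 6681 and 10143 CPM in the tumor libraries while fibrillar collagen runs from 39.7 to 3728 CPM, and in the sprout libraries fibrillar, fibroblast and mural sums are highest in STOP replicate 2 and GO replicate 1.

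Among the other collagens, the type VI chains Col6a1, Col6a2 and Col6a3 were uneven in the same way, each highest in wild-type replicate 2. Col6a3, the chain of the type VI microfibril that carries the endotrophin fragment, was at 48.1, 9.85 and 8.29 CPM in the Apelin-depleted libraries and at 58.2 to 684 CPM (median 138) in the wild-type ones. Its groups did not overlap, and the log2 fold change was −3.32 (SE 1.02, adjusted p = 0.937, edgeR), or −4.59 without Apelin-depleted replicate 1 and −2.51 without wild-type replicate 2. Col6a1 was at 110, 0.56 and 20.7 CPM against 31.2 to 791 CPM, and Col6a2 at 42.5, 1.69 and 23.4 CPM against 25.6 to 724 CPM, with overlap in both. Col8a1, a chain of the short network-forming type VIII of vessel walls, was at 0, 44.1 and 6.46 CPM against 6.25 to 342 CPM, the last in wild-type replicate 1. Col23a1, a transmembrane collagen, was detected above 1 CPM in depleted replicates 1 and 2 (36.7 and 26.9 CPM) and wild-type replicate 3 (38.3 CPM) only. Of the 25 collagens outside the basement membrane and fibrillar classes 18 were tested, 13 with a negative and 5 with a positive estimate (median −1.47, and −2.63 to −0.98 when single libraries were left out, the ends being without Apelin-depleted replicates 1 and 3). The other 7 (Col6a4, Col6a6, Col9a1, Col9a2, Col10a1, Col19a1 and Col26a1) stayed at or below 3.77 CPM in every tumor library.

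Col13a1, a transmembrane collagen of cell adhesion sites, went the opposite way. It was at 161, 137 and 242 CPM in the depleted libraries and at 14.2 to 83.7 CPM (median 33.2) in the wild-type libraries, with no overlap. Wild-type replicates 1 and 2 (83.7 and 79.5 CPM) lay nearest to the depleted group. The log2 fold change was 2.06 (SE 0.50, unadjusted p = 0.000787, adjusted p = 0.686, edgeR), and it ranged from 1.79 to 2.36 when single libraries were left out. It was called without the filter on low counts (adjusted p = 0.0292), the adjusted p over its alternatives running from 0.0292 to 0.999.

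Of the 31 collagen genes tested in tumor ECs, none passed an adjusted p of 0.05 with an absolute log2 fold change over 1 in edgeR, in either direction. Over all 13073 genes, 0.00765% (1 gene) was called lower and 0% higher. At an unadjusted p under 0.05, 6 collagen genes were lower and 2 higher, where the background was 2.94% lower and 1.87% higher. Groups did not overlap for 4 collagen genes lower (Col3a1, Col5a1, Col5a3 and Col6a3) and 1 higher (Col13a1), where 1.27% and 1.06% of all genes tested were so separated. DESeq2 called Col5a3 (−3.13, SE 0.72, adjusted p = 0.00687) and Col6a3 (−3.31, SE 0.78, adjusted p = 0.0079) lower among 94 genes lower and 19 higher and gave no p for Col1a1, Col1a2 and Col3a1, which it set aside for an outlying count. As to the third tool, limma-voom with quality weights called no collagen gene.

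For 7 pairs of chains, some of them partners in 1 molecule (such as Col6a1 and Col6a2) and some not (such as Col4a1 and Col1a1), levels were compared across the 9 tumor libraries on log2(CPM + 1) with two-sided exact permutation tests adjusted over the pairs. Col6a1 and Col6a2 rose and fell together, with Pearson r = 0.96 (exact p = 0.000165, adjusted 0.00116) and Spearman rho = 0.92 (exact p = 0.00131, adjusted 0.00918). Without the 2 libraries farthest from the median of Col6a1, r was 0.82. Within the 6 wild-type libraries r was 0.94 (exact p = 0.00556, adjusted 0.0389) and rho 0.89 (exact p = 0.0333, adjusted 0.233). Col1a1 and Col1a2 gave r = 0.90 (exact p = 0.00657, adjusted 0.023) but rho = 0.57 (exact p = 0.121, adjusted 0.172), and without wild-type replicates 2 and 5 r was 0.13, so the relation rests on those libraries. Col4a1 and Col4a2 gave r = 0.58 (exact p = 0.111, adjusted 0.194) over their narrow range, with rho = 0.65 (exact p = 0.0666, adjusted 0.172). Across the other 4 pairs the adjusted p of r ran from 0.0663 to 0.347. Both depleted and wild-type libraries enter these values, and within the wild-type libraries no other pair passed 0.05 after adjustment.

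In sprout ECs, none of the basement membrane chains was called in the main edgeR fit, while DESeq2 called Col15a1. The levels of all tested ones but Col4a5 lay lower in both libraries labelled STOP. The type I, III and V chains were instead high in 1 library of each label, and of the 11 fibrillar chains 3 (Col11a1, Col11a2 and Col27a1) lay lower without overlap under the STOP label, near the 29.6% of all genes tested that did. Col4a1 was at 675 and 1767 CPM in the libraries labelled STOP and at 3772 and 2342 CPM in those labelled GO. Col4a2 was at 339 and 832 CPM against 1875 and 1161 CPM. For both genes each STOP library lay below each GO library, with a log2 fold change, STOP over GO throughout, of −1.32 (SE 0.59, adjusted p = 0.264) and −1.38 (SE 0.56, adjusted p = 0.235) in edgeR. Both estimates moved with single libraries. Leaving out 1 sprout library leaves 1 in that group, which is assumed to vary like the 2 of the other label, so calls made that way rest on 1 library against 2. Without STOP replicate 2 they were −2.19 and −2.18 and were called (adjusted p = 0.0181 and 0.0223, edgeR), and without STOP replicate 1 they were −0.77 and −0.85 (adjusted p = 0.382 and 0.341), with adjusted p up to 0.760 and 0.722 over the alternatives.

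Col15a1, at 4.94 and 11.7 CPM against 25.1 and 20.8 CPM, gave a log2 fold change of −1.47 (SE 0.41, adjusted p = 0.0896, edgeR). It was called by DESeq2 (adjusted p = 0.00592) and without the filter (0.0395), but not with the replicate block. Its log2 fold change ran from −2.23 to −0.95 when single libraries were left out. Col18a1 was at 1078 and 988 CPM against 1434 and 1323 CPM, the steadiest of the basement membrane chains at −0.42 (SE 0.15, adjusted p = 0.134, edgeR). Col4a6 was at 1.22 and 3.01 CPM against 6.08 and 4.36 CPM (−1.32, SE 0.49, adjusted p = 0.140, edgeR). Its log2 fold change ran from −2.11 to −0.78 when single libraries were left out. Col4a5, the head-to-head neighbour of Col4a6 on chromosome X, was at 11.1 and 20.04 CPM against 31.8 and 13.2 CPM with overlap. All 6 tested basement membrane chains had a negative estimate, with a median of −1.32 against 0.01 over the 14557 genes tested. That median was −0.78 without STOP replicate 1, −2.14 without STOP replicate 2, and −0.96 without GO replicate 1, where 5 of the 6 were negative. Of the 6 chains, 5 did not overlap, where 29.6% of all genes tested lay lower without overlap. Col4a3 and Col4a4 did not pass the filter.

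Several marker lists differed between the labels as well, in either direction. The endothelial markers summed to 704 and 929 CPM in the libraries labelled STOP and to 2786 and 2610 CPM in those labelled GO, and 11 of 12 were called lower (edgeR), where 3.03% of all genes tested were, the median of their log2 fold changes being −1.91. All 10 pluripotency markers had counts in every sprout library, summing to 5959 and 5811 CPM against 2278 and 3811 CPM. Epithelial markers summed to 1232 and 912 CPM against 757 and 697 CPM. Of the 9 epithelial markers tested, 4 lay higher without overlap under the STOP label, where 31% of all genes tested did, and 5 had a negative estimate. Extraembryonic endoderm markers, all 10 with counts in every sprout library, summed to 210 and 364 CPM against 426 and 412 CPM. Of the 9 tested, 8 had a negative estimate (median −1.48) and 3 were called lower (Afp, Gata4 and Sox17, of which Sox17 is also expressed by endothelium). Afp was near the floor, with 2 and 5 counts against 26 and 42. Rhox5, the 1 with a positive estimate, was at 145 and 245 CPM against 64.7 and 142 CPM. The part of these markers in the collagen values was not tested.

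**Figure D3:**
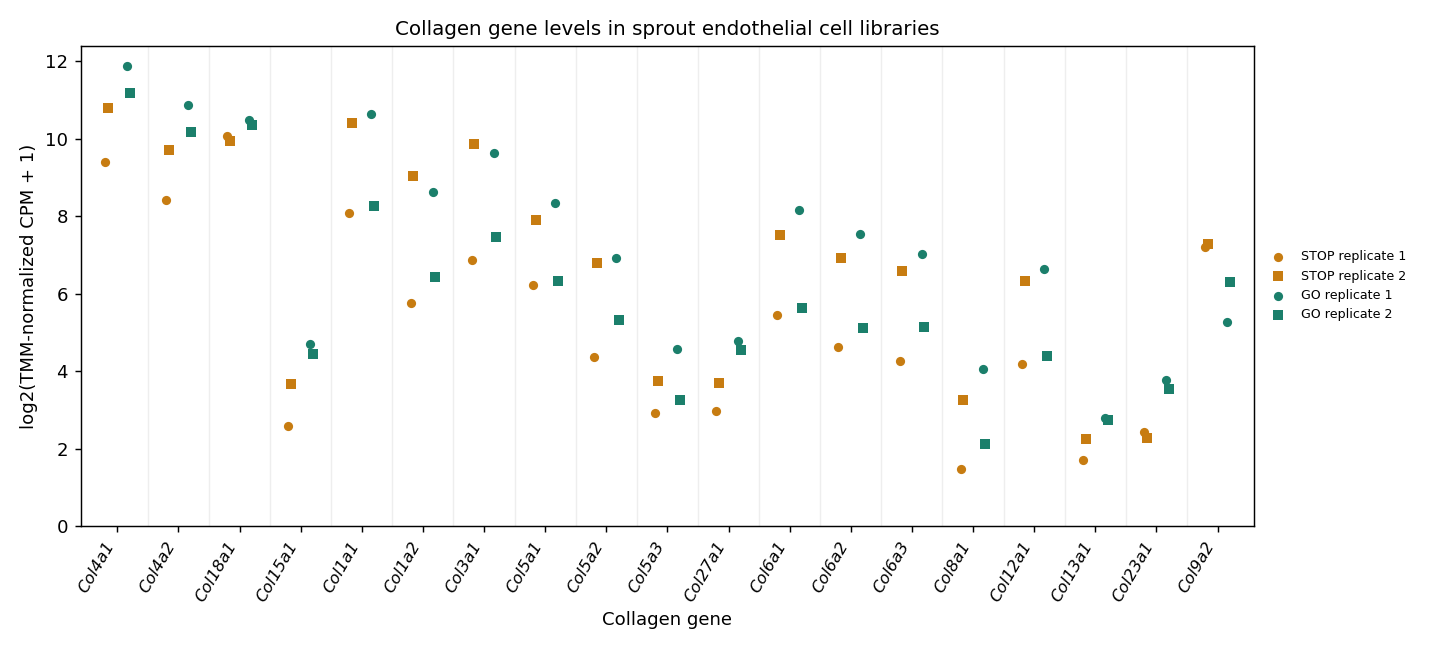
Level of 19 collagen genes in each sprout EC library, as log2 of TMM-normalized CPM + 1, with libraries labelled STOP in orange and GO in green. The STOP symbols lie below the GO symbols for Col4a1, Col4a2, Col18a1, Col15a1, Col27a1 and Col23a1, while the type I, III, V and VI chains are split by library, high in STOP replicate 2 and GO replicate 1 (Col1a1 at 1367 and 1588 CPM).

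The abundant fibrillar chains were high in 1 library of each label. Col1a1 was at 270 and 1367 CPM in the libraries labelled STOP and at 1588 and 306 CPM in those labelled GO. Col3a1 was at 117 and 942 CPM against 789 and 176 CPM, and Col1a2 at 53.0 and 525.8 CPM against 392.4 and 85.9 CPM. For all 3 genes STOP replicate 2 and GO replicate 1 were high and the other 2 libraries low. Col5a1 (74.0 and 239 against 326 and 79.1 CPM), Col5a2 (19.6 and 110 against 121 and 38.7 CPM) and Col6a1 (42.6 and 183 against 284 and 48.5 CPM), with Col6a2 and Col6a3, were high in the same libraries, which Col6a4 and Col6a5 were not. The log2 fold changes, −0.21 (SE 1.37) for Col1a1, 0.13 (SE 1.5) for Col3a1 and 0.27 (SE 1.59) for Col1a2, were smaller than their errors (adjusted p = 0.941, 0.966 and 0.933, edgeR). Each of them turned sign when 1 library was left out, Col1a1 becoming 1.42 without GO replicate 1 and Col3a1 −2.07 without STOP replicate 2.

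The same 2 libraries held the most fibroblast and mural marker signal. Fibroblast markers summed to 93.6 and 316 CPM in the libraries labelled STOP and to 501 and 182 CPM in those labelled GO, with 9 or 10 of the 10 genes counted in each and only Dpt at 0. Mural markers, all 10 with counts in every library, summed to 98.5 and 312 CPM against 518 and 163 CPM. Their part in the fibrillar values was not tested. Fibrillar collagen summed to 583 and 3242 CPM against 3319 and 749 CPM. The basement membrane share of both classes was therefore 78.3% and 52.8% in the libraries labelled STOP (mean 65.5% ± 18.1, SD, n = 2) and 68.3% and 86.7% in those labelled GO (mean 77.5% ± 13.0, SD, n = 2). The groups overlapped, and every sprout share lay below those of the tumor libraries other than wild-type replicate 2. Library kit, counter and cell source differ between the sets and cannot be told apart.

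The collagens past the thresholds in sprout ECs were at low levels. Col27a1, a fibrillar chain best known from cartilage, was at 6.77 and 12.1 CPM in the libraries labelled STOP and at 26.7 and 22.3 CPM in those labelled GO, a log2 fold change of −1.38 (SE 0.30, adjusted p = 0.0400, edgeR). Col23a1 was at 4.40 and 3.83 CPM against 12.7 and 10.7 CPM, a log2 fold change of −1.50 (SE 0.28, adjusted p = 0.0267, edgeR). Of 38 collagen genes tested these 2 were called lower and none higher, with 3.03% of all 14557 genes tested called lower and 0.852% higher. At an unadjusted p under 0.05, 11 collagen genes were lower and 2 higher, where the background was 14.3% and 12.4%. Groups did not overlap for 15 lower and 3 higher, where the background was 29.6% and 31%. The 2 calls were lost when STOP replicate 1 or GO replicate 1 was left out, Col23a1 also without STOP replicate 2, and Col27a1 also without GO replicate 2 (where, with 1 library left under the GO label, Col11a1, at −1.85, and Col9a2 were called, their adjusted p with all 4 libraries being 0.174 and 0.119) and with RSEM's expected counts (adjusted p = 0.064). Among the 25 chains of neither class 21 were tested, 16 with a negative and 5 with a positive estimate (median −0.55). Their direction rested on single libraries: without GO replicate 1, 7 were negative and 14 positive (median 0.58), and without STOP replicate 1, 11 and 10 (median −0.017). The chains Col6a6, Col10a1, Col19a1 and Col28a1 stayed at or below 0.81 CPM in every sprout library. DESeq2 called Col15a1, Col23a1, Col26a1 and Col27a1 lower, among 628 genes lower, and Col9a2 higher, among 197 genes higher.

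The collagen with the largest positive log2 fold change among those tested in sprout ECs was Col9a2, of the cartilage type IX, which attaches to fibril surfaces. It was at 146 and 155 CPM against 37.6 and 78.6 CPM, with no overlap, and its log2 fold change was 1.38 (SE 0.38, adjusted p = 0.119, edgeR; adjusted p from 0.000222 to 0.404 over the alternatives). Col6a5 was at 14.4 CPM in both libraries labelled STOP against 6.14 and 9.60 CPM (0.88, SE 0.29, adjusted p = 0.106, edgeR). Col13a1, higher in Apelin-depleted tumor ECs, was here at 2.23 and 3.75 CPM against 5.90 and 5.65 CPM (−0.96, SE 0.38, adjusted p = 0.161, edgeR).

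**Figure D4:**
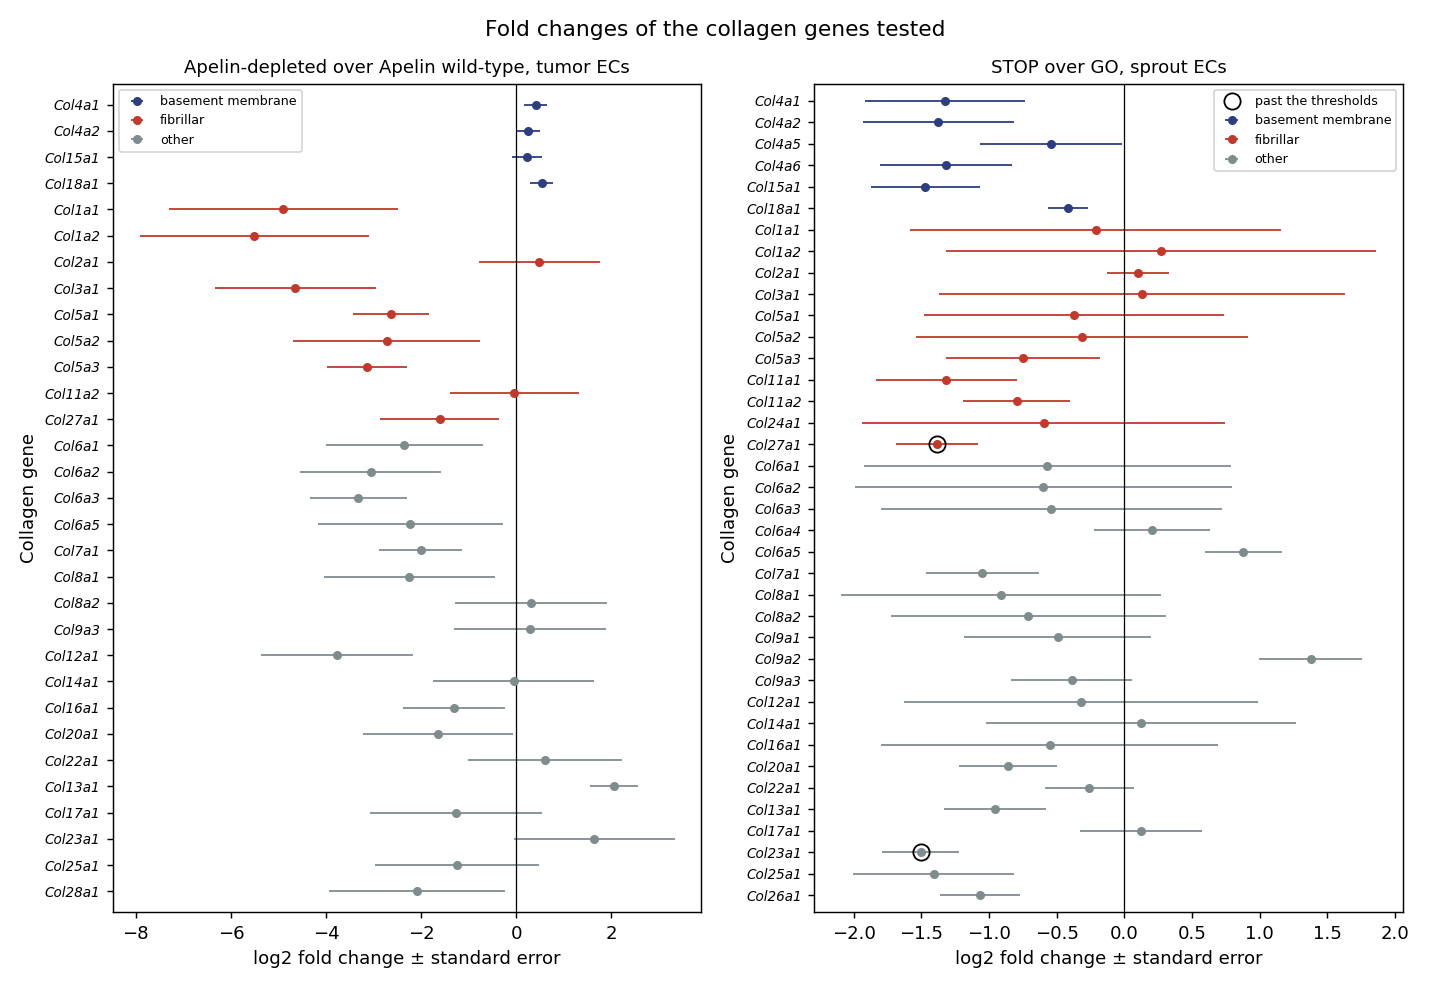
Log2 fold change with its standard error for the 31 collagen genes tested in tumor ECs (left) and the 38 tested in sprout ECs (right), with basement membrane chains in blue, fibrillar chains in red and others in grey. The 4 basement membrane chains lie close to 0 in tumor ECs and the 6 in sprout ECs lie below 0, and the circled genes, Col27a1 and Col23a1, are past the thresholds.

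The ratio between the type IV chains lay in separate ranges in the 2 sets, narrow in the sprout libraries and wider in the tumor libraries. Divided by transcript length, Col4a1 over Col4a2 was 1.94 and 2.06 in the libraries labelled STOP and 1.95 and 1.96 in those labelled GO, although the level of Col4a1 differed between them from 675 to 3772 CPM. RSEM's TPM gave 1.92 to 2.05. In the tumor libraries the ratio was 0.612, 0.931 and 0.744 in the Apelin-depleted and 0.569 to 0.809 in the wild-type libraries (mean 0.76 ± 0.16, SD, n = 3, and 0.69 ± 0.09, SD, n = 6). Exact binomial 95% intervals, which cover counting error only, were narrower than this spread in the tumor libraries. In the sprout libraries the widest, 1.87 to 2.00 in STOP replicate 1, was as wide as the spread between libraries. The ratio within a library does not depend on scaling between libraries, but the kit and counter of the sets differ and cannot be told apart from the cells. Col15a1 over Col18a1, per length, was 0.117 to 0.257 in the tumor libraries and 0.00435 to 0.0166 in the sprout libraries.

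**Figure D5:**
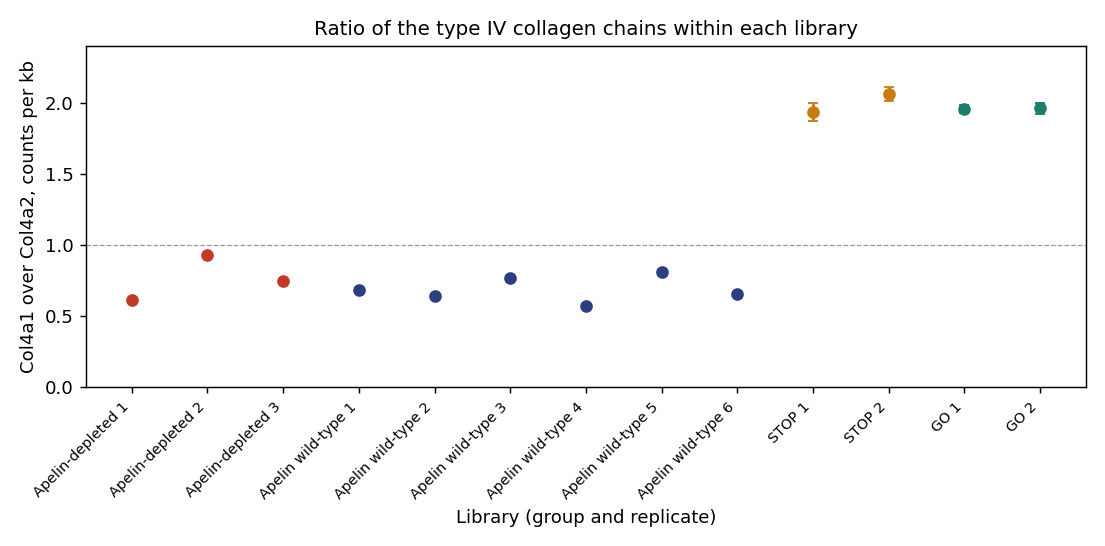
Ratio of Col4a1 to Col4a2 in counts per kb of transcript in each library, with exact binomial 95% intervals that cover counting error only and a dashed line at equal levels. The 4 sprout libraries lie between 1.94 and 2.06 and the 9 tumor libraries between 0.569 and 0.931.

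The machinery around the collagens was read from lists of 32 genes of chain modification, secretion, processing and cross-linking, 8 binding partners and 10 receptors. In tumor ECs 29, 7 and 9 of them were tested and none was called in either direction (edgeR), with unadjusted p under 0.05 for Lox lower, P4ha2 and Colgalt2 higher, and the receptor Ddr2 lower, where the background was 2.94% lower and 1.87% higher. P4ha2 was at 254, 74.2 and 88.1 CPM in the depleted libraries and at 54.8 to 112 CPM in the wild-type ones. Its log2 fold change of 0.98 ran from 0.21 to 1.28 when single libraries were left out. Lox, a collagen cross-linking oxidase, was at 0, 0 and 0.24 CPM in the depleted libraries and at 0 to 37.3 CPM in the wild-type ones, highest in replicates 1 and 2. Its log2 fold change was −6.62 (SE 2.23, adjusted p = 0.936, edgeR). Lox was tested in 13 alternatives, against 16 for Ddr2, as it failed the filter when some single libraries were left out. Where it was tested, its log2 fold change ran from −9.20 to −5.95. That range need not cover the loss of wild-type replicate 1 or 2. DESeq2 called Lox (adjusted p = 0.0259, against 0.340 to 0.999 over its other alternatives). Ddr2, a receptor for fibrillar collagen, was at 33.3, 2.81 and 5.61 CPM against 19.9 to 107 CPM (log2 fold change −1.98, SE 0.79, adjusted p = 0.975, edgeR). Its estimate ran from −3.70 to −1.49 when single libraries were left out.

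In sprout ECs 31, 8 and 7 were tested, of which 3 were called lower and 1 higher, where 3.03% and 0.852% of all genes tested were. Of the partners, Nid1 (nidogen, which links type IV collagen to laminin) was lower at 200 and 303 CPM in the libraries labelled STOP against 684 and 483 CPM (−1.21, SE 0.26, adjusted p = 0.0492, edgeR). Pxdn (peroxidasin, which forms the sulfilimine cross-links of type IV collagen) was lower at 111 and 164 CPM against 383 and 275 CPM (−1.26, SE 0.25, adjusted p = 0.0398, edgeR). The collagen-binding integrin chain Itga2 was at 2.57 and 2.93 CPM against 9.20 and 8.31 CPM (−1.67, SE 0.32, adjusted p = 0.0265, edgeR). Pcolce2, an enhancer of procollagen C-proteinase, was the single gene of these lists called higher, at 21.7 and 19.8 CPM against 6.78 and 9.44 CPM (1.36, SE 0.25, adjusted p = 0.0254, edgeR). Bmp1, that proteinase, was at 39.5 and 60.9 CPM against 183 and 112 CPM and was not called (−1.56, SE 0.33, adjusted p = 0.0643, edgeR). It was past the thresholds under an alternative, its log2 fold change running from −1.92 to −1.165 over all of them. All 4 calls were lost without STOP replicate 1, without GO replicate 1 and with the replicate block (adjusted p from 0.112 to 0.154), that of Itga2 also without STOP replicate 2, and those of Nid1 (adjusted p = 0.0724) and Pxdn (0.0627) also with RSEM's expected counts. That of Nid1 was lost with DESeq2's size factors too (0.0573).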

How the data were processed

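RNA-seq of sorted mouse ECs was analysed in 9 tumor and 4 sprout libraries, each set on its own. The authors deposited raw counts per gene for the tumor libraries (50-bp single-end reads, mm10, featureCounts of Subread 1.6.2), whose aligner is STAR in the study's methods and Bowtie2 2.3.4.1 in the submitters' processing notes. For the sprout libraries the authors deposited HTSeq counts (0.6.1p1, after STAR 2.5.0a), with reads that hit no gene or several set aside here, and RSEM (1.2.25) expected counts and TPM, used as alternatives after rounding the expected counts. The FPKM values the authors deposited beside them (RSEM, scaled by length and depth) were not used. Strandedness of the counting is not given in the sources used here, and the first exons of Col4a1 and Col4a2 overlap on opposite strands. Tests used edgeR 4.0.16 (TMM, filterByExpr with a minimum count of 10, robust quasi-likelihood) under R 4.3.3, with Benjamini-Hochberg adjustment over all genes tested, and a gene was called at adjusted p under 0.05 and an absolute log2 fold change over 1. DESeq2 1.42.0 and limma 3.58.1 were alternatives, and scripts were tested on simulated data. Levels are CPM, counts scaled to a common library size by TMM, and lengths are RSEM's. The members and lists were chosen with earlier results of these data known. Named genes were all basement membrane and fibrillar chains, other collagens past the thresholds or among the 8 highest per kb, and, of the assembly, partner and receptor lists, those past the thresholds and the 3 of lowest p; Col6a5 in the sprout libraries, Col13a1 in the sprout libraries and the mesenchymal marker genes were named after their values were seen.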

Additional observations from a re-analysis of the deposited data

Results flagged for a closer look

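Fibrillar collagen summed to 3728 CPM in wild-type replicate 2 of the tumor libraries and to 143 to 432 CPM in the other 5 wild-type libraries. That sample stood far from its group, its gap to the nearest library being 0.661 of the whole range on the log2(CPM + 1) scale (Dixon's test). Col23a1 was at 38.3 CPM in wild-type replicate 3 and at 0 to 0.91 CPM in the other 5, a gap of 0.823 of the range on the same log2 scale. Of 24 groups of values examined these 2 stood out, and chance alone gives about 1 in 20. The log2 fold change of Col13a1 was 2.06 in tumor ECs (adjusted p = 0.686, edgeR). Every Apelin-depleted library lay above every wild-type library, as for 1.06% of all genes tested there. In sprout ECs, at 2.23 to 5.90 CPM, the log2 fold change was −0.96 (adjusted p = 0.161, edgeR). Every library labelled STOP lay below every library labelled GO, as for 29.6% of all genes tested in sprout ECs. The difference between the sets was not tested.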

How the results depend on the processing

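Over the named genes and their alternatives, 828 fold changes kept their direction and their side of the thresholds, 20 passed the thresholds, 25 lost them and 42 changed sign. In tumor ECs the counts of collagen genes called were 2 lower with DESeq2 and 1 higher without the filter on low counts. Over all genes the calls lower were 94 with DESeq2, 7 without the filter and 1 to 2 when single libraries were left out, and the calls higher were 19, 9 and, with limma-voom, 1. In sprout ECs the collagen genes called lower were 4 with DESeq2, 4 without the filter, 1 with RSEM's expected counts and 0 to 4 when single libraries were left out, and those higher were 1 with DESeq2 and 0 to 1 with single libraries left out. Over all genes 135 to 548 were called lower and 12 to 341 higher when single libraries were left out, and the calls higher were 197 with DESeq2, 222 without the filter and 279 with no fold-change threshold. The causes were not tested.

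Same-numbered tumor libraries did not deviate together (r = −0.071, 0.057 and −0.14 for numbers 1 to 3). In the sprout libraries r was −0.434 for both numbers. With 2 libraries per label the deviations within a label mirror each other, so both numbers must give the same value. The check therefore cannot decide whether or how the sprout libraries were paired. With the replicate block, 2 genes were called lower in tumor ECs, and in sprout ECs 41 genes lower, 3 higher and 0 collagen genes, so that Col27a1 and Col23a1 lost their calls, as did Itga2, Nid1, Pcolce2 and Pxdn. The replicate block also turned the sign of Col2a1 in tumor ECs (−1.60) and of Col1a2 (−0.13), Col3a1 (−0.17) and Col14a1 (−0.029) in sprout ECs. A crossed pairing of the sprout libraries in the replicate block, chosen after seeing the data, called 933 genes lower and 302 higher, and 9 collagen genes lower.

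With limma-voom, Col2a1 (−1.19) and Col5a2 (0.045) changed sign in tumor ECs. Leaving out single libraries gave log2 fold changes on both sides of 0 for Col15a1 (−0.087 to 0.43), Col2a1 (−3.07 to 1.06), Col11a2 (−0.48 to 0.47), Fn1 (−0.037 to 0.66) and Pecam1 (−0.014 to 0.24) in tumor ECs. The same held in sprout ECs for Col4a5 (−1.04 to 0.23), Col1a1 (−1.83 to 1.42), Col1a2 (−2.20 to 1.75), Col2a1 (−0.13 to 0.30), Col3a1 (−2.07 to 1.59), Col5a1 (−1.48 to 0.98), Col5a2 (−2.06 to 0.74), Col5a3 (−1.28 to 0.14) and Col24a1 (−4.41 to 0.70). It held too for Col6a1 (−1.99 to 1.21), Col6a2 (−2.23 to 1.11), Col6a3 (−2.18 to 0.73), Col12a1 (−1.82 to 1.26), Col16a1 (−1.98 to 0.99) and Col14a1 (−1.45 to 1.25). The causes were not tested. The 100 cells per tumor library limit the chains counted at a few CPM, and 2 libraries per label limit every sprout value, so that each sprout fit with 1 library left out takes its spread from the other label.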
